A study of Rattus norvegicus with 6 samples.

Results

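This is an account of 10 genes that mark the liver sinusoidal endothelial cell, measured in whole rat liver after a brominated flame retardant. The genes are Stab1, Stab2, Lyve1, Clec4g, Pecam1, Kdr, Cdh5, Tek, Fcgr2b and Eng, taken from a fixed list and found on the array by matching each probe's transcript accession to the current rat symbol. The match gave 12 probes for 7 of the 10 genes, out of 15284 genes named in all. No probe was matched to Stab1, Stab2 or Clec4g, so these 3 have no value here.

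The tested animals were 3 male Sprague-Dawley rats dosed daily with 1000 mg/kg/day of BBMP, short for 2,2-bis(bromomethyl)-1,3-propanediol, and their controls were 3 male rats of the same strain that received corn oil. Both groups came from Charles River Japan at 5 weeks of age and ate the same basal diet. The series' design text gives day 28, and its treatment protocol gives 9 weeks. Each liver was hybridised to 1 single-colour Agilent array.

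The sinusoids are the capillaries of the liver. Their endothelial cells have open pores and no continuous basement membrane, and they clear hyaluronan, immune complexes and other waste from portal blood through scavenger receptors. Stab1 and Stab2 encode the stabilins, Lyve1 a hyaluronan receptor, Fcgr2b the inhibitory Fc-gamma receptor that takes up small immune complexes, and Clec4g a C-type lectin. Kdr, Tek and Eng encode receptors for VEGF, angiopoietins and BMP9, and Pecam1 and Cdh5 encode adhesion proteins of endothelial junctions. All endothelium expresses these junction genes and signalling receptors to some degree, Pecam1 is also present on platelets and leukocytes, and Fcgr2b on Kupffer cells and B cells.

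Promoter sequences were at hand for 6 of the 10 genes (Lyve1, Eng, Stab2, Clec4g, Kdr and Stab1), from RefSeq on build GRCr8. Endothelial genes as a class are known to depend on ETS family factors, whose core motif is GGAA, and sinusoidal identity in mouse on Gata4, for which GATAA was searched. The core GGAA, on either strand, occurred between 3 and 8 times in each of the 6 promoters. Over all 33469 promoters of the same length its median number was 3, and 95.8% held at least 1. GATAA, on either strand, occurred in 0 of the 6 and in 26.5% of all promoters. Other spellings of the GATA motif, such as GATAG, were not searched, so the 0 does not mean that GATA sites are absent. Lyve1 and Eng are shown because they hold the only marker probes whose groups did not overlap, and Kdr as a gene whose groups overlapped closely. Each sequence runs 5′ to 3′ on the gene's strand from 250 bases before the start site to 50 bases after it, with GGAA and its reverse complement in capitals.
Lyve1, chr1:174410928-174411227, minus strand: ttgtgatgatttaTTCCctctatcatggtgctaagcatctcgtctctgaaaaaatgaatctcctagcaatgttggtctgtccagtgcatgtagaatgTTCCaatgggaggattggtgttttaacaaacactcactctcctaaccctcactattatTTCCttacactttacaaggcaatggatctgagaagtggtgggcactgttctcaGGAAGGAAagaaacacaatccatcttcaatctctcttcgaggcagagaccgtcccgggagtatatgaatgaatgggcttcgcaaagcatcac
Eng, chr3:36332029-36332328, plus strand: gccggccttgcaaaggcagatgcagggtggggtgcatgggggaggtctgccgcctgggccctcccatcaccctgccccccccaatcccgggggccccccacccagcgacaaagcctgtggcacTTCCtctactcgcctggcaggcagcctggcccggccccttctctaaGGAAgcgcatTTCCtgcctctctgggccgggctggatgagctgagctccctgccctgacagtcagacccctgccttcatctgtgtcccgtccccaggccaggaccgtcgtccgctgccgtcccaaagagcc
Kdr, chr14:32571813-32572112, plus strand: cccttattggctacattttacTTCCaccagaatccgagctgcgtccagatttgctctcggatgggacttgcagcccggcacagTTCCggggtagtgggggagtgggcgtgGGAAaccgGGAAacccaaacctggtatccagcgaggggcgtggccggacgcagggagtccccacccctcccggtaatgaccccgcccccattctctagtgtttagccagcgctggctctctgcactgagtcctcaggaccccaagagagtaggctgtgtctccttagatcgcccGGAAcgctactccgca
Lyve1 and Kdr had 5 matches each and Eng 3. The Lyve1 window was 43.3% G or C, against 61.0% for Kdr and 68.7% for Eng. A match of letters describes the sequence and does not show that a factor binds there.

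Values below are log2 signals on a scale where 0 is the 75th percentile of that array, so that 1 unit is 2-fold. The arrays' 75th percentiles lay between 450.1 and 570.4 intensity units, and 60.1% to 64.4% of probes were well above background. On the first principal component, 32.9% of the variance, the BBMP arrays lay between 19.1 and 28.7 and the corn oil arrays at -9.60, -50.8 and -14.8, so that corn oil 2 stood apart. Every BBMP array lay on 1 slide read in 1 scan and every corn oil array on a different slide and scan, so a treatment difference and a slide or scan difference cannot be told apart. The protocol speaks of 3 animals per treatment, and 3 arrays a group limit the precision.

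None of the 7 measured markers passed the test for a difference between BBMP and corn oil livers. Of the 12 marker probes, 11 were well above background on all 6 arrays, at least 1 for each of the 7 genes, and these 11 were tested. With limma and Benjamini-Hochberg adjustment over 28112 features, 0 of the 7 genes had an adjusted p under 0.05, where 0.00711% of all features did. At an unadjusted p under 0.05 the count was also 0 of 7, against 10.8% of all features. The brightest probe of 6 genes was higher and that of 1 gene lower in BBMP livers, where 47.5% of all features were higher. The median difference of the 7 genes was 0.14, beside -0.01 over all features. Groups did not overlap for 1 of the 7 genes, where 17.9% of all features had groups that did not overlap. The share of members is thus near that background.

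The confidence intervals cover the spread among arrays of a group and not an offset between the slides. For 6 of the 7 genes the 95% confidence interval of the BBMP over corn oil ratio lay within 2-fold in both directions, the exception being Lyve1. For 4 genes, Kdr, Pecam1, Cdh5 and Eng, it lay within 1.5-fold. In whole tissue, fewer cells of a type and less RNA per cell cannot be told apart.

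**Figure D1:**
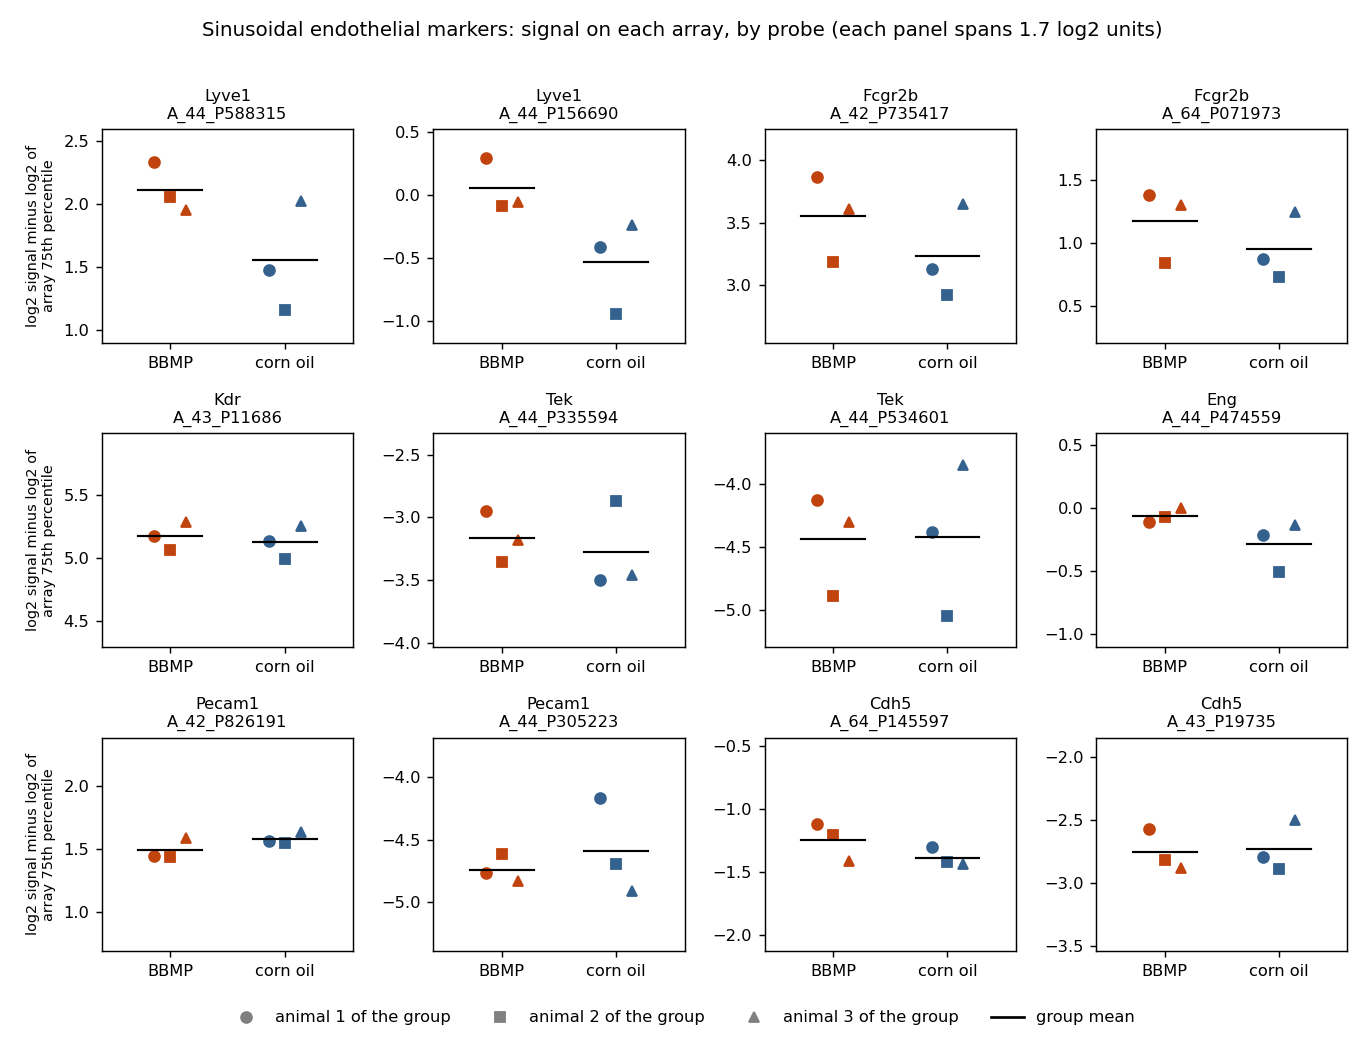
Signal of the 12 marker probes on each array, as log2 signal minus log2 of that array's 75th percentile, with BBMP livers on the left of each panel and corn oil livers on the right, the marker shape giving the animal and the bar the group mean. The groups part in 2 panels, the Lyve1 probe A_44_P156690 and Eng, and overlap in the other panels.

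Among the scavenger receptors, Lyve1 had the widest difference of the 7 genes. Its brighter probe, A_44_P588315, read 2.33, 2.06 and 1.96 in BBMP livers, against 1.48, 1.16 and 2.03 in corn oil livers. Corn oil 3 lay inside the range of the BBMP livers, while the other corn oil livers lay below it. The difference was 0.56 ± 0.23 (SE, n = 3 each), a ratio of 1.48 with an interval from 0.996 to 2.18 (limma adjusted p = 0.465). The second Lyve1 probe, A_44_P156690, gave 0.30, -0.09 and -0.06 in BBMP livers and -0.41, -0.95 and -0.24 in corn oil livers. Here every BBMP liver was above every corn oil liver, as was the case in one direction or the other for 17.4% of all 37644 tested probes. Its difference of 0.58 ± 0.21 was close to that of the brighter probe (limma adjusted p = 0.450; unadjusted p = 0.0306). Both probes were lowest in corn oil 2, and without that animal the differences were 0.36 and 0.38.

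Fcgr2b differed less between the groups than within them. Its brighter probe, A_42_P735417, read 3.86, 3.18 and 3.61 in BBMP livers and 3.13, 2.92 and 3.65 in corn oil livers. BBMP 1, BBMP 3 and corn oil 3 were high and the other 3 livers low, so the groups overlapped. The difference was 0.32 ± 0.25 (SE), with an interval from -0.27 to 0.91 (limma adjusted p = 0.662). The probe A_64_P071973 gave 1.38, 0.83 and 1.30 in BBMP livers and 0.87, 0.73 and 1.24 in corn oil livers, with the same 3 livers highest (difference 0.22 ± 0.20, adjusted p = 0.713). Both probes thus put the same livers at the top.

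**Figure D2:**
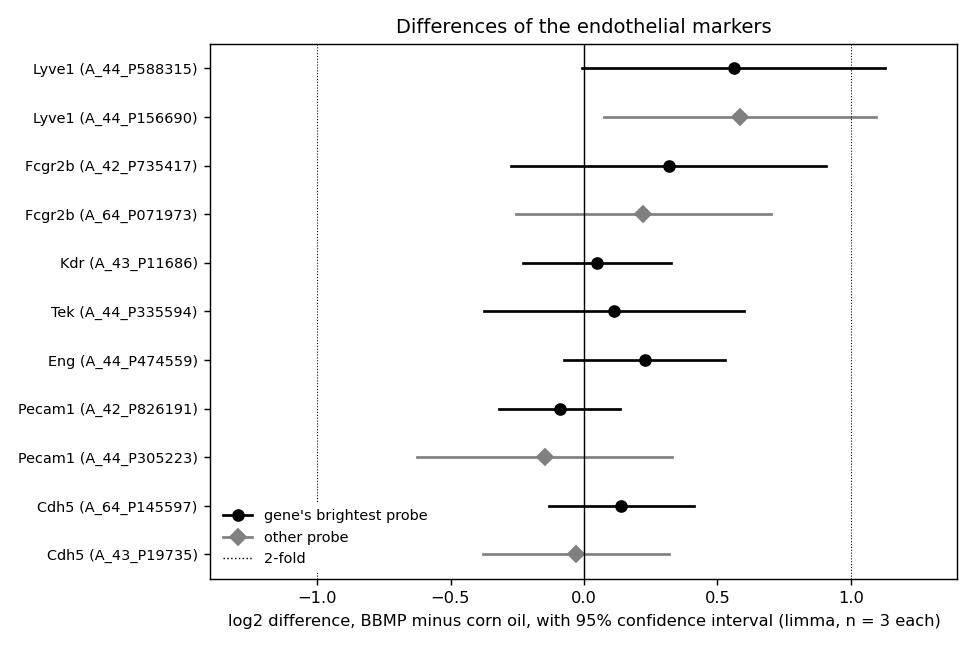
Log2 difference of each of the 11 tested marker probes, BBMP minus corn oil, with its 95% confidence interval, circles for a gene's brightest probe and diamonds for another probe, and dotted lines at 2-fold. Lyve1 lies farthest from 0 with both probes, at 0.56 and 0.58, and Kdr and Pecam1 lie near 0 with short intervals.

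Of the growth factor receptors, Kdr, the main signalling receptor for VEGF, was nearly level across the 6 livers. Its probe, A_43_P11686, read 5.17, 5.06 and 5.29 in BBMP livers, against 5.14, 4.99 and 5.25 in corn oil livers. The difference was 0.05 ± 0.11 (SE), a ratio of 1.03 with an interval from 0.854 to 1.25 (limma adjusted p = 0.898). Its sign turned to -0.019 without corn oil 2 and to -0.0078 without BBMP 3.

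Eng, which encodes the BMP9 co-receptor endoglin, was the only gene whose brightest probe had groups that did not overlap. The probe, A_44_P474559, read -0.11, -0.07 and 0.00 in BBMP livers, against -0.22, -0.51 and -0.14 in corn oil livers. BBMP 1 and corn oil 3 were separated by a small gap, and the groups overlapped once arrays were scaled on their median instead. The difference was 0.23 ± 0.13 (SE; limma adjusted p = 0.547), and 0.12 without corn oil 2.

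Tek, the angiopoietin receptor Tie2, was dim and varied within the groups. The probe A_44_P335594 read -2.95, -3.35 and -3.18 in BBMP livers and -3.49, -2.87 and -3.46 in corn oil livers, where corn oil 2 was the highest of the 6. The difference was 0.11 ± 0.20 (SE; limma adjusted p = 0.862). It was 0.0024 without corn oil 1, 0.32 without corn oil 2 and 0.029 with normexp. The other Tek probe, A_44_P534601, was well above background in 2 BBMP and 2 corn oil livers and was not tested.

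The junction genes differed little. Pecam1, on the probe A_42_P826191, read 1.44, 1.44 and 1.59 in BBMP livers and 1.56, 1.55 and 1.63 in corn oil livers. It was the only marker whose brightest probe averaged lower after BBMP, by 0.09 ± 0.09 (SE), a ratio of 0.939, the interval of the difference running from -0.32 to 0.14 (limma adjusted p = 0.745). Its dim probe A_44_P305223 ranged from -4.83 to -4.62 in BBMP livers and from -4.91 to -4.17 in corn oil livers. These signals lie near the lowest signals that counted as well above background, -5.40 to -4.89 across the arrays.

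Cdh5, which encodes VE-cadherin, the adhesion protein of endothelial junctions, read -1.12, -1.21 and -1.42 in BBMP livers and -1.30, -1.42 and -1.44 in corn oil livers on the probe A_64_P145597. The difference was 0.14 ± 0.11 (SE; limma adjusted p = 0.676). The probe A_43_P19735 gave -0.03 ± 0.14 (adjusted p = 0.954). The Cdh5 probes disagreed in sign and ordered the animals differently: corn oil 3 was the lowest of the 6 livers on the brighter probe, at -1.44, and the highest on the other, at -2.50.

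**Figure D3:**
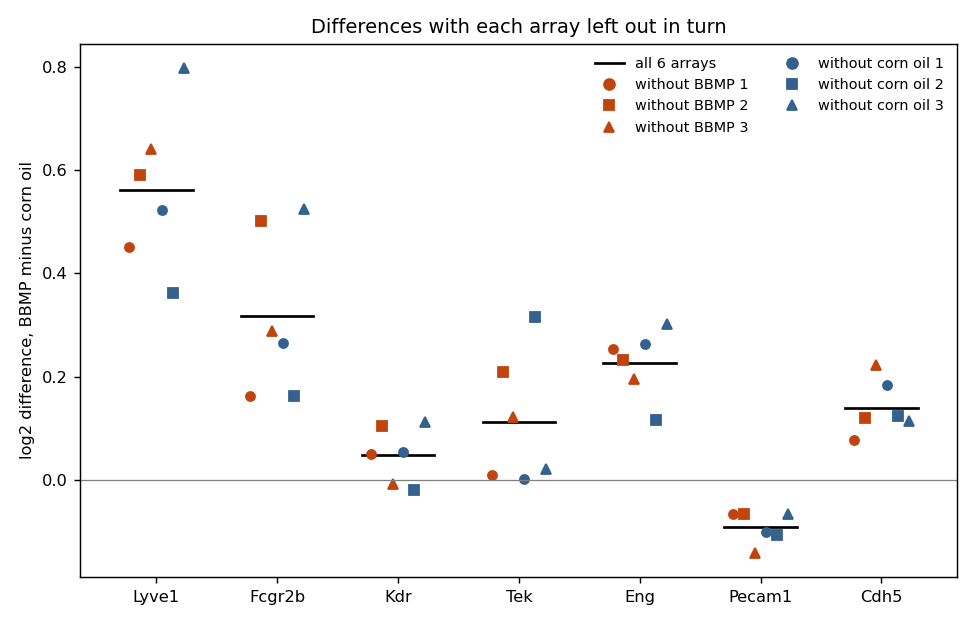
Log2 difference of the 7 genes, BBMP minus corn oil, with all 6 arrays (bars) and with each array left out in turn (symbols by animal, colours by group). Leaving out corn oil 2 lowered Lyve1 to 0.36 and Fcgr2b to 0.16 and left Kdr at -0.019, while Pecam1 stayed below 0 throughout.

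Corn oil 2 was the lowest of the 6 livers for 4 of the 7 genes: Lyve1, Fcgr2b, Kdr and Eng. Without it the member differences ranged around a median of 0.12, against 0.14 with all arrays. No fit without an array brought a marker under an adjusted p of 0.05.

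The ligands and downstream genes of the marker receptors were examined next, from a list of 39 genes of VEGF, angiopoietin, BMP, TGF-beta, Notch and hyaluronan signalling. Of 36 tested, 13 were higher and 23 lower in BBMP livers, 0 passed over all features, and the median difference was -0.07. At an unadjusted p under 0.05, 2 were higher and 6 lower, where 10.8% of all features had such a p in either direction. The 2 higher genes were Bmp6 and Bmpr2, whose limits are given below. Groups did not overlap for 9 of the 36, beside 17.9% of all features. Vegfa, the ligand of Kdr, read 4.57, 4.75 and 4.55 in BBMP livers and 4.78, 5.07 and 4.90 in corn oil livers. All BBMP livers lay below all corn oil livers, with a difference of -0.29 ± 0.12 (SE; limma adjusted p = 0.458). BBMP 2 and corn oil 1 were separated by a small gap, and the difference ranged from -0.41 to -0.15 across the other processing settings. Vegfb, a ligand of the related receptor Flt1, differed by -0.38 ± 0.14 (adjusted p = 0.435), and Flt1, which binds VEGF and restrains its signalling, by -0.07 ± 0.12 (adjusted p = 0.853).

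Gdf2, which encodes BMP9, the ligand that endoglin presents to its receptors, read 3.72, 3.77 and 3.43 in BBMP livers, against 4.03, 3.97 and 3.81 in corn oil livers. Its groups did not overlap either, and the difference was -0.30 ± 0.13 (limma adjusted p = 0.471). Smad1, a transducer of BMP signals, differed by -0.32 ± 0.11 (adjusted p = 0.417). Id3, a transcriptional target of BMP signals, differed by -0.92 ± 0.31 (adjusted p = 0.417), with 2.42, 1.95 and 2.71 in BBMP livers and 2.69, 3.71 and 3.45 in corn oil livers. BBMP 3 lay just above corn oil 1, so the Id3 groups overlapped. Other genes of BMP signalling lay in either direction, and those given next were picked after their values were seen. The receptors that bind BMP9 with endoglin, Bmpr2 and Acvrl1, differed by 0.47 ± 0.19 and 0.17 ± 0.14 (SE, limma adjusted p 0.457 and 0.680). On the brightest Bmpr2 probe every BBMP liver was above every corn oil liver, but with the mean of its probes the Bmpr2 difference was 0.07. Bmp10, a ligand close to BMP9, differed by -0.54 ± 0.23 (adjusted p = 0.473), and by -0.24 with normexp. Its signals, -5.11 to -3.87, lay near the lowest that counted as well above background. Bmp6, a ligand from sinusoidal endothelium that sets hepcidin in hepatocytes, differed by 0.97 ± 0.36 (adjusted p = 0.435). It was well above background in 3 BBMP livers and 1 corn oil liver, and its difference was 0.11 with normexp background correction. Id1, a BMP target like Id3, differed by 0.29 ± 0.31 (adjusted p = 0.758), and by -0.078 without BBMP 3.

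Angpt1, the activating ligand of Tek, differed by 0.22 ± 0.22 (limma adjusted p = 0.740), but by 0.0098 with normexp and 0.0095 without BBMP 2. Angpt2, which often opposes it, differed by -0.37 ± 0.37 (adjusted p = 0.732), but by -0.036 without BBMP 2. Tie1, the partner receptor of Tek, differed by 0.50 ± 0.29 (adjusted p = 0.563), and by as little as 0.24 across the other processing settings.

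**Figure D4:**
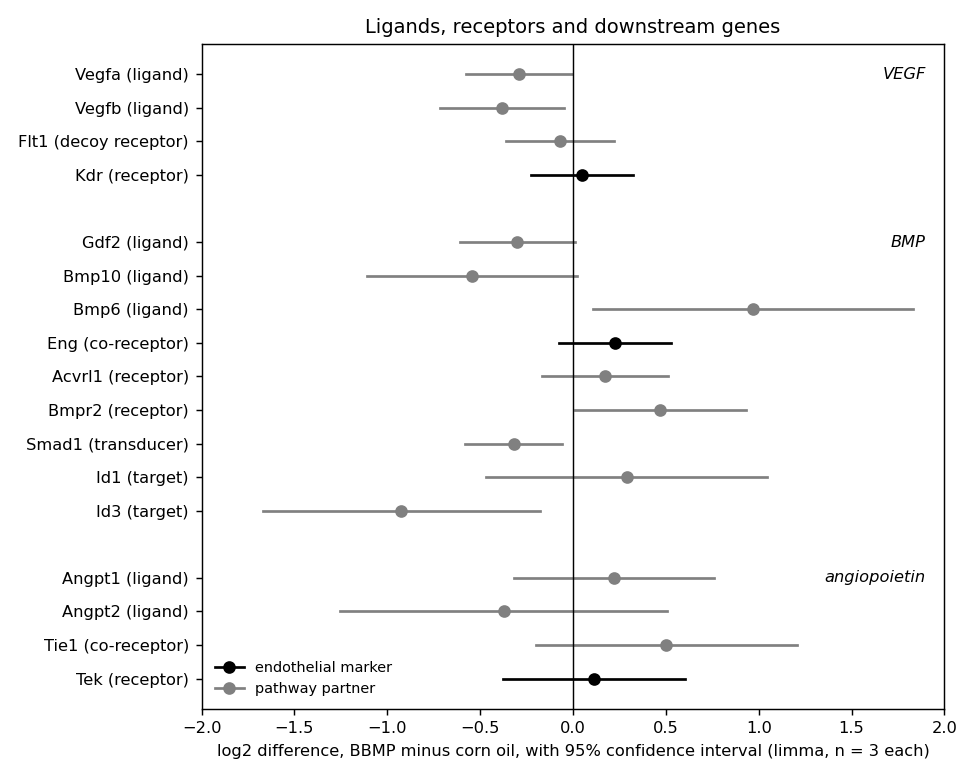
Log2 difference, BBMP minus corn oil, with its 95% confidence interval for 3 of the marker receptors (black) and their ligands, partner receptors and downstream genes (grey), grouped as VEGF, BMP and angiopoietin signalling. The BMP genes lie on both sides of 0, with Id3 at -0.92. Bmp6 lies at 0.97, but it was well above background in only 1 corn oil liver, and its difference was 0.11 with normexp. Kdr and Eng lie at 0.05 and 0.23, and no gene shown passed over all features.

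Other genes of sinusoidal endothelium gave a similar picture. Of 24 listed, 19 were tested, 13 higher and 6 lower in BBMP livers, with a median difference of 0.12 and 0 past the threshold. Over all features 47.5% were higher. Groups did not overlap for 2 of the 19, beside 17.9% of all features. Maf, which encodes a transcription factor, read -0.59, -0.54 and -0.62 in BBMP livers and -0.92, -0.88 and -0.95 in corn oil livers. The animals of each group lay close together and the groups apart, with a difference of 0.33 ± 0.09 (SE; limma adjusted p = 0.393; unadjusted p = 0.00747). Gata4, the factor named above, lay in the other direction at -0.41 ± 0.15 (adjusted p = 0.435), and the water channel Aqp1 differed by 0.47 ± 0.27 (adjusted p = 0.560).

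Genes of other endothelium and of endothelium in general, 37 listed and 30 tested, were higher in 19 cases and lower in 11. Over all features 47.5% were higher. The median was 0.09, 0 passed the threshold and 1 gene had groups that did not overlap, beside 17.9% of all features. That gene was Klf4, a transcription factor that responds to blood flow, at 0.29 ± 0.11 (SE; limma adjusted p = 0.441), and 0.081 with normexp. The surface antigen Ly6c differed by 0.49 ± 0.22 (adjusted p = 0.487) and S1pr1, the sphingosine 1-phosphate receptor, by -0.59 ± 0.27 (adjusted p = 0.491). Among partners of Cdh5 and Pecam1 at the junction, 9 were tested and 6 were lower, with a median of -0.02 and 0 without overlap. The smallest p belonged to plakoglobin, Jup (-0.17 ± 0.11), alpha-catenin, Ctnna1 (0.16 ± 0.11), and the adhesion protein Esam (0.14 ± 0.12), with limma adjusted p from 0.590 to 0.701.

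The same 3 livers, from both groups, had the highest scores for endothelial and for Kupffer cell genes. A list's score on an array is the mean, over its tested genes, of the log2 signal minus the gene's mean over the 6 arrays. The score of the 7 markers was 0.20, -0.01 and 0.09 in BBMP livers and -0.13, -0.20 and 0.05 in corn oil livers. The list of Kupffer cell and macrophage markers scored 0.26, -0.26 and 0.52 in BBMP livers and -0.44, -0.42 and 0.34 in corn oil livers. In both, and in both lists of further endothelial genes, the 3 highest scores were those of BBMP 1, BBMP 3 and corn oil 3, in an order that differed between lists. Among the 7 markers, the brightest probes of Fcgr2b and Kdr also put these livers highest. Those of Lyve1, Eng, Tek, Cdh5 and Pecam1 did not, so the order of the score is not that of each marker. Fcgr2b is itself part of the score of the 7 markers, and it is expressed by Kupffer cells too. The part of Kupffer cells in the Fcgr2b or Lyve1 values was not tested.

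**Figure D5:**
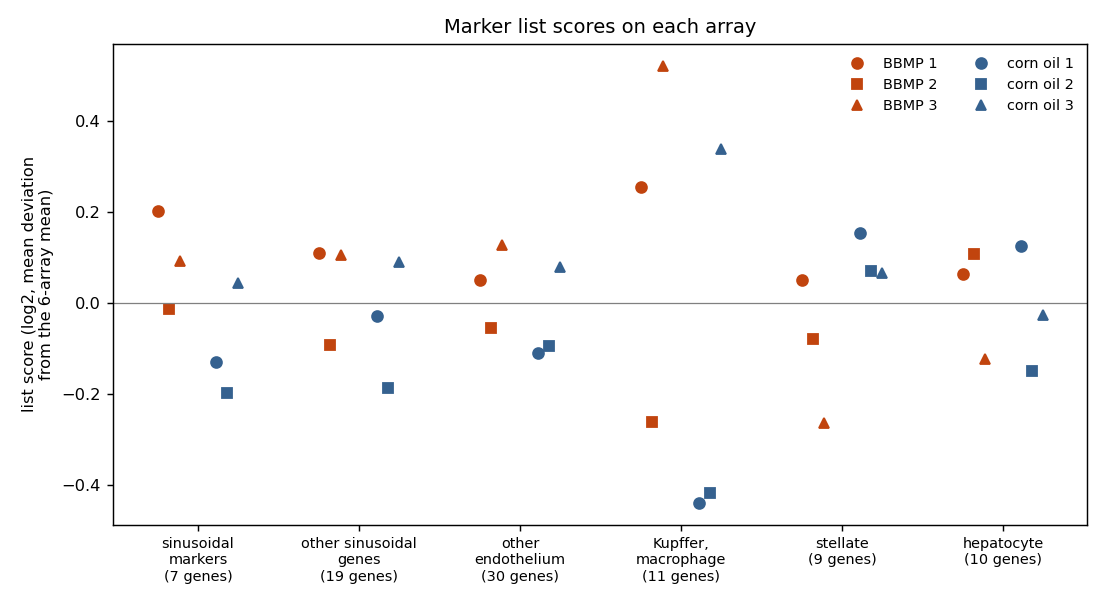
Score of 6 marker lists on each array (log2, mean deviation from the 6-array mean), with BBMP livers to the left of corn oil livers and the marker shape giving the animal. BBMP 1, BBMP 3 and corn oil 3 are highest in the first 4 lists, and only the stellate cell scores part the groups, from -0.26 to 0.05 in BBMP livers and from 0.07 to 0.15 in corn oil livers.

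For the Kupffer cell list 11 of 11 tested genes were higher in BBMP livers, where 47.5% of all features were higher. The median was 0.34, with 0 past the threshold and 0 without overlap. BBMP 1, BBMP 3 and corn oil 3 were the highest livers for each gene, so the 11 are not separate observations. The smallest p of the list belonged to the complement receptor Vsig4 (0.55 ± 0.27, SE), the lectin Clec4f (0.34 ± 0.20) and the growth factor receptor Csf1r (0.41 ± 0.29), with limma adjusted p from 0.515 to 0.631. For stellate cell markers 6 of 9 were lower and 3 higher, with a median of -0.25. Groups did not overlap for 4 of the 9, beside 17.9% of all features: Lrat, Pdgfrb and Reln, lower in BBMP livers, and Des, higher by 0.18 ± 0.10 (SE; limma adjusted p = 0.548). Lrat, the enzyme that stores retinol, differed by -0.49 ± 0.14, the receptor Pdgfrb by -0.53 ± 0.16 and the collagen gene Col3a1 by -0.34 ± 0.13 (adjusted p from 0.406 to 0.449). Hepatocyte markers were higher in 5 of 10 cases with a median of -0.01 and 3 without overlap, beside the same 17.9% of all features. Among them Cps1, of the urea cycle, differed by 0.49 ± 0.20, the asialoglycoprotein receptor gene Asgr1 by -0.20 ± 0.09 and Serpina1, the antitrypsin gene, by -0.18 ± 0.10 (adjusted p from 0.455 to 0.558).

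B cells also carry Fcgr2b and platelets Pecam1. Cd79b, which encodes a chain of the B cell receptor complex, differed by -0.50 ± 0.35 (SE; limma adjusted p = 0.626). The part of B cells in the Fcgr2b values was not tested. The platelet genes Pf4 and Gp9 differed by 0.62 ± 0.36 and -0.11 ± 0.15 (adjusted p 0.563 and 0.813). Genes of lymphatic endothelium, where Lyve1 is also expressed, were higher in 4 of 4 cases with a median of 0.05. Over all features 47.5% were higher, and most of the 4 differences were smaller than their SE. T and NK cell genes were lower in 4 of 6 cases, cholangiocyte genes in 2 of 4 and erythroid genes in 3 of 3. Each list had 0 genes past the threshold and 0 without overlap, beside 0.00711% and 17.9% of all features. In lists this short, counts of 0 are unremarkable at those shares.

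The genes whose values over the 6 arrays followed a marker most closely were sought among 11111 named genes, as a description. For Kdr they were Ceacam1 (Pearson r = 0.997), an adhesion molecule, Fcgrt (0.993), the neonatal Fc receptor, and Manba (0.993), the lysosomal beta-mannosidase. Spearman's rho was 1.00, 1.00 and 0.943. For Fcgr2b they were Akr1c15, Ntng1 and Cenps (r = 0.997, 0.990 and 0.987, with rho of 1.00 each), and for Lyve1 they were Dok4, Tbxa2r and Arl11 (r = 0.990, 0.982 and 0.982, with rho of 0.771, 0.829 and 0.943). These are the highest of 11111 values over 6 arrays that also share their slide within a group. Dok4 and Arl11 read -5.42 and -5.34 in corn oil 2, below that array's lowest signal well above background, -4.89. Their correlations with Lyve1 thus rest in part on values at background. None of the 9 genes passed over all features.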

How the data were processed

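Per the file headers, the deposited scanner files hold linear spot intensity read by Agilent Feature Extraction 10.7.1.1 (array design 035170, annotated on rn4), with background subtracted and not scaled between arrays. The submitters' processing notes name version 10.7. A value table from the authors carries the same intensity on a linear scale: each column equals the processed signal over 1 constant per array, uncentred, and the column medians are 0.1000, 0.0976 and 0.0971 for BBMP and 0.1005, 0.0994 and 0.0977 for corn oil.

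Of 62976 spots, 1319 control spots and 84 external spike-in probes were left out. The remaining 61573 probes were named through unversioned accessions in the RefSeq table of GRCr8 (27460 probes). Signals were divided by the 75th percentile of their array and put on the log2 scale, without outlier spots. Probes had to be well above background throughout BBMP or throughout corn oil, and the brightest of these stood for its gene, with limma 3.58.1 in R 4.3.3 (two-sided, no covariate, Benjamini-Hochberg over 28112 features, threshold 0.05). Values for a gene's second probe come from the same fit on all 37644 passing probes. Tables used Python 3.11.15, pandas 2.3.3 and numpy 2.4.6. The fit was tested on simulated data.

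Members and lists were chosen with earlier results of these data known. Named genes are all members, the 3 smallest p of a list (in the T and NK, cholangiocyte, lymphatic and erythroid lists only counts are given, and 1 listed gene is not reported here) and ligands or partners of members; Bmp6, Bmp10, Bmpr2, Acvrl1, Id1, Angpt2, Reln and Des were added after their values were seen. Alternatives were other scaling, normexp (planned for the mean spot signal and computed from the median, the mean not being a column of the files used here), other filters and probe rules, the value table, a trend, the replicate number as a block and each array left out. Same-numbered animals deviated with correlations of 0.089, 0.016 and 0.072, and differently numbered animals with -0.104 to 0.033. These values are all small and do not settle whether the numbers pair the animals. The main fit did not take them as pairs.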

Additional observations from a re-analysis of the deposited data

How the results depend on the processing

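All alternatives were planned. The number of features past an adjusted p of 0.05, 2 of 28112, was 0 with normexp, 0 with the filter on all 6 arrays, 1 without a filter, 0 with the replicate block, and 0 to 4 with 1 array left out (0 without corn oil 3, 4 without corn oil 2). Before adjustment, 3252 features with normexp, 2835 with that filter, 3308 without one and 3235 with the block had a p under 0.05, and 1934 to 3216 with 1 array left out. The cause was not tested, except that the filter removes dim features by construction. The number of members with groups that do not overlap, 1, was 0 with median scaling, 2 with the mean of probes, where Lyve1 joins Eng, and 1 to 4 with 1 array left out, where fewer values have to part. Tek ranged from 0.0024 to 0.32 without 1 array. The members' median difference, 0.14, ranged from 0.08 to 0.21 without 1 array. Of 119 recomputed member differences, 0 passed the threshold (adjusted p at least 0.370) and 2 turned sign, both of Kdr, which ranged from -0.019 to 0.11 without 1 array; the replicate block changed no member's call, with Lyve1 at an adjusted p of 0.460. Of 839 values for the other named genes and second probes 12 turned sign. Ntng1 was -0.020 with normexp. Without 1 array the ranges were -0.0069 to 0.25 for Ceacam1, -0.012 to 0.13 for Fcgrt, -0.069 to 0.16 for Manba, -0.16 to 0.015 for Flt1, -0.078 to 0.51 for Id1, -0.19 to 0.039 for Gp9, -0.31 to 0.065 for the Pecam1 probe A_44_P305223 and -0.12 to 0.083 for the Cdh5 probe A_43_P19735. Dim signals, whose values are less certain, included those of Tek, the second Pecam1 probe, Bmp6, Bmp10, Angpt1, Ntng1, Dok4 and Arl11. Whether dim signal accounts for their changes between settings was not tested.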
